A study of Culex quinquefasciatus with 7 samples.

Results

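The comparison of females at 12 h with females at 24 h after eclosion, when the adult leaves the pupal case, covers the later part of the first day of adult life in Culex quinquefasciatus, the southern house mosquito. Its members are the 7578 genes, of 20305 in the deposited table, with at least 5 FPKM at either time (the number of sequenced fragments of a gene, relative to its length in kilobases and to the depth of the library). The change of a gene is log2((FPKM at 24 h + 1)/(FPKM at 12 h + 1)), which damps the change where values are low. Both groups are whole adult females reared with 12 h of light in each day, differ by age alone per the labels, and are 1 library each, made from a pool of 200 animals. The series holds 5 more such libraries, at 2, 36, 48, 60 and 72 h. No treatment, feeding or mating state is given in the labels. No time has a second library, so replicate error is unknown and differences are given by size, with no test.

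A newly emerged female mosquito finishes hardening her cuticle, completes her flight muscle and dismantles pupal tissues. Her fat body and ovaries mature under juvenile hormone until the ovary arrests and waits for a blood meal, and during the same days she turns from resting to seeking sugar and then hosts. Cuticle proteins, muscle proteins, digestive enzymes and sensory proteins are the gene families best known for changing in this period. Which of the genes below belong to them cannot be told here: the table gives CPIJ identifiers only, and 0 of 20305 matched the 18458 genes of the reference table. Genes are therefore grouped by level, size of change and time course, the markers of tissues or of material from males could not be checked, and up to 2 genes per direction are given by identifier.

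Depth can be estimated only in relative terms. Among 1879 genes above 0 and below 0.3 FPKM at both times, 18% shared 1 ratio within 0.01 on the log2 scale. Read as genes with the same fragment number in both libraries, they put the 24 h library at 1.10 times the depth of the 12 h library. This reading assumes that the values were not otherwise scaled between libraries, which is not stated in any source at hand. The sum of FPKM was 428805 at 12 h and 465605 at 24 h. The 24 h values also stood higher over the 2761 genes that reached 10 FPKM throughout the series. The median ratio of these genes to their geometric mean over all libraries was 0.919 at 12 h and 1.08 at 24 h. The second is 1.18 times the first, a shift of 0.24 on the log2 scale. The main counts are followed by those obtained once each library was divided by its own median ratio, on the same 7578 genes.

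Between 12 h and 24 h, 722 genes (9.53% of those compared) had at least 2-fold higher values and 302 (3.99%) had values lower by 2-fold or more. After rescaling, 412 genes (5.44%) were higher and 465 (6.14%) lower. Which direction held more genes at 2-fold thus depended on the scaling. All 412 were among the 722, and all 302 were among the 465. The other 6554 genes lay within 2-fold, 4641 of them with a higher and 1913 with a lower value at 24 h.

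Large decreases outnumbered large increases under both scalings, except that at 4-fold the order turned when 0.1 FPKM was added in place of 1 FPKM (115 higher and 96 lower). At 4-fold, 69 genes (0.911%) were higher and 84 (1.11%) lower, and after rescaling 49 (0.647%) and 103 (1.36%). At 10-fold, 9 genes (0.119%) were higher and 23 (0.304%) lower, and after rescaling 9 (0.119%) and 26 (0.343%). The distribution of changes accordingly had a longer lower tail. Its median was 0.30 and its 5th and 95th percentiles were -0.87 and 1.26. After rescaling the median was 0.082 and these percentiles were -1.09 and 1.04.

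**Figure D1:**
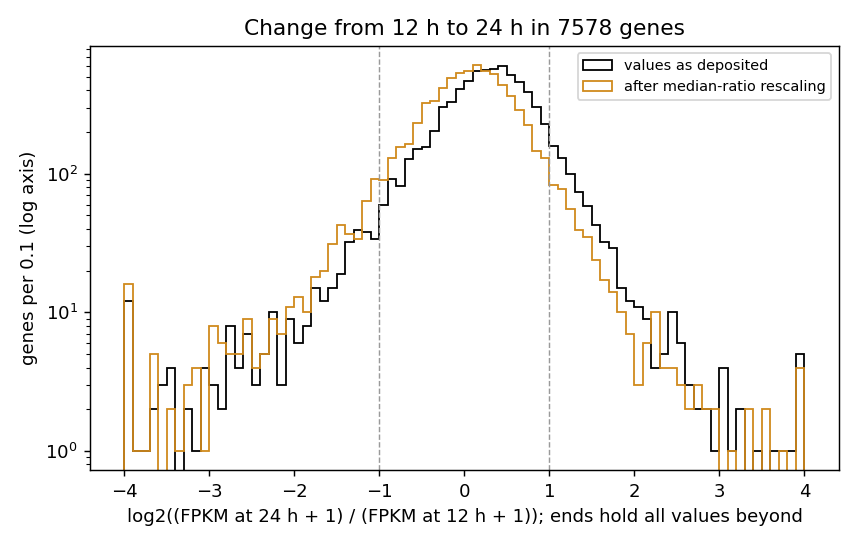
Number of genes (log axis) by change from 12 h to 24 h on the log2(FPKM + 1) scale, for 7578 genes, with the deposited values (black) and after rescaling (orange); dashed lines mark 2-fold. The bulk shifts left on rescaling, and the tail beyond -2 (84 genes, 103 after rescaling) holds more genes than the tail beyond 2 (69 and 49), an order that turned at 4-fold with 0.1 FPKM added (96 lower, 115 higher).

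Changes were more frequent among abundant genes, and decreases had a larger part there. Genes were placed by the higher of their 2 values. Of 2599 genes between 5 and 10 FPKM, 193 were at least 2-fold higher and 54 lower (107 and 106 after rescaling). In this class, a gene past 2-fold in the deposited values reached the minimum of 5 FPKM only at its higher time. That minimum was reached by 7217 genes at 24 h and by 6437 at 12 h. Of 3718 genes from 10 to 50 FPKM, 364 were higher and 141 lower (206 and 215). Among the deposited values higher genes thus prevailed in both classes, while after rescaling the numbers were close. Of 835 genes from 50 to 200 FPKM, 113 were higher and 54 lower (66 and 72). Of 305 genes from 200 to 1000 FPKM, 38 were higher and 29 lower (24 and 42). Of the 121 genes at 1000 FPKM or more, 14 were higher and 24 lower (9 and 30), although the median change of this class was 0.58 (0.34). More genes were lower than higher only in this most abundant class with the deposited values, but in every class from 10 FPKM up after rescaling. The part past 2-fold in either direction went from 9.50% in the lowest class to 31.4% in the highest (8.20% to 32.2% after rescaling). With 0.1 FPKM added, a choice made after seeing the data, these values were 15.4% and 31.4%.

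**Figure D2:**
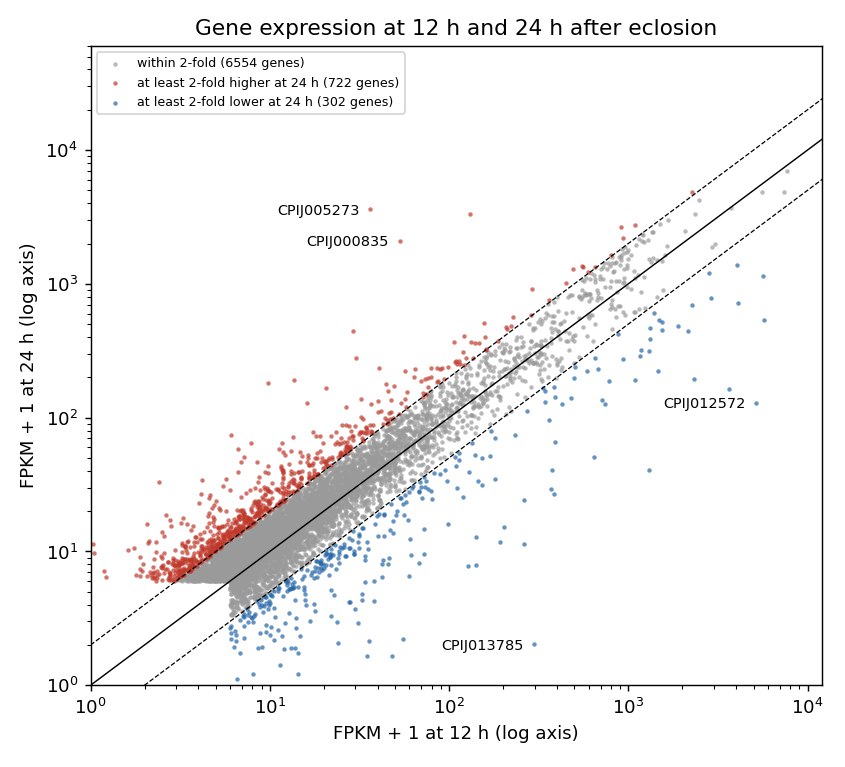
FPKM + 1 of 7578 genes at 12 h (x) and 24 h (y), both on log axes, 1 library per time; dashed lines mark 2-fold, and the square gap at lower left is the minimum of 5 FPKM. Genes at least 2-fold lower (302, blue) and at least 2-fold higher (722, red) at 24 h both reach into the abundant range. By the higher of the 2 values, both are most numerous from 10 to 50 FPKM (141 lower, 364 higher). At 1000 FPKM or more, 24 are lower and 14 higher.

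Complete switches were rare among these genes. Only 12 of the 7578 genes were below 1 FPKM at 12 h and at 5 FPKM or more at 24 h, with a median of 6.69 FPKM at 24 h and none above 10.4 FPKM. In the other direction 14 genes went from 5 FPKM or more to below 1 FPKM, the highest of them from 47.3 FPKM. After rescaling the numbers were 10 and 16, and the highest value at 12 h was then that of a gene at 324 FPKM. None of the 7578 genes was listed at 0 at either time.

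Measured as a part of the sum of FPKM, the exchange was larger than the gene counts convey. The 302 genes that were lower held 18.9% of the sum of FPKM at 12 h and 4.02% at 24 h (22.8% and 5.95% for the 465 genes after rescaling). The 722 genes that were higher held 5.04% at 12 h and 13.7% at 24 h (2.52% and 8.70% for the 412 genes after rescaling). The genes within 2-fold held 73.6% and 79.7%, and the 12727 genes below the minimum 2.42% and 2.56%. The 2 classes were defined by these values, so their shares at 12 h and 24 h describe the choice. At the times that did not enter it, the lower genes held 28.4% at 2 h and between 1.62% and 2.82% from 36 h on (32.4%, and 2.84% to 4.81%, after rescaling). The higher genes held 3.54% at 2 h and between 13.7% and 14.7% from 36 h on (1.84%, and 7.79% to 8.91%, after rescaling). In bulk samples of whole animals, fewer cells of a type and less RNA per cell cannot be told apart.

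**Figure D3:**
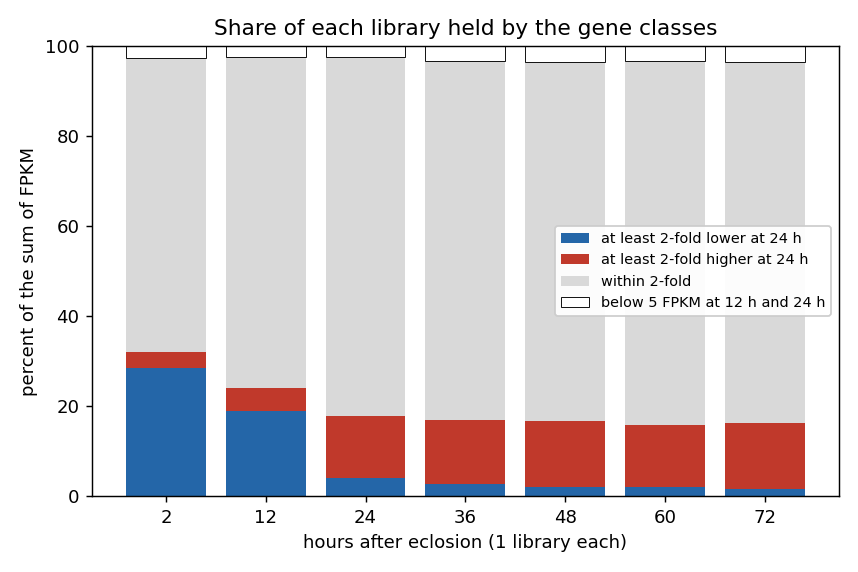
Percent of the sum of FPKM (y) in each of the 7 libraries (x, hours after eclosion) held by genes at least 2-fold lower at 24 h than at 12 h (blue), at least 2-fold higher (red), within 2-fold (grey) and below 5 FPKM at both times (white), classed by the deposited values. The blue part goes from 28.4% at 2 h to 18.9% at 12 h and 4.02% at 24 h, and the red part from 5.04% at 12 h to 13.7% at 24 h, where it stays.

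Summed over all genes, 23.8% of the sum of FPKM was redistributed between 12 h and 24 h. This measure does not depend on the scaling of a library. The same measure was 20.8% in the preceding interval (2 to 12 h), 13.2% in the following one (24 to 36 h), and between 7.99% and 9.86% in the 3 later intervals. The step from 12 to 24 h was thus the largest of the 6 by this measure, but not per hour: it is 12 h long against 10 h, and the redistribution per hour was 1.98% against 2.08% from 2 to 12 h. Also, a smaller part of genes was past 2-fold (13.5% of 7578) than from 2 to 12 h (17.4% of 6764). Neighbouring intervals share a library, and with no replicates the spread of this measure is unknown.

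The losses were concentrated in few genes and the gains were spread. The 10 genes that lost most made up 32.8% of all loss in share, and 9 of them were past 2-fold. Together they went from 10.03% of the sum of FPKM at 12 h to 2.22% at 24 h. The 10 genes that gained most made up 17.6% of all gain, going from 2.58% to 6.77%, and 7 of them were past 2-fold. The greatest single loss was in a gene that stood at 5697 FPKM in the 12 h library and 532 FPKM in the 24 h library. It had stood at 3509 FPKM at 2 h and was at 11.7 FPKM by 36 h. The third greatest gain was in a gene that was abundant throughout, at 2266 FPKM at 12 h, 4827 FPKM at 24 h and 7157 FPKM at 72 h. Both genes are described after their values were seen.

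The set of abundant genes was shared in part between the 12 h and 24 h libraries. The 10 genes with the highest FPKM in each library had 4 in common. The shared number was 25 for the top 50 and 64 for the top 100. At least 1000 FPKM was reached by 66 genes at 12 h and 92 at 24 h, 37 of them at both times, which is 37 of 66 and 37 of 92. These are counts of the deposited values, which stood higher at 24 h by the median ratio, and were not repeated after rescaling. Crossing this line does not require a 2-fold change. Of the 121 genes in the class from 1000 FPKM up, 31.4% were past 2-fold (32.2% after rescaling). Shared numbers were not obtained for other intervals, so whether this overlap is low for the series was not tested.

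The largest increase was that of CPIJ005273. It was listed at 1.34 FPKM at 2 h, 35.3 FPKM at 12 h, 3613 FPKM at 24 h, 2948 FPKM at 36 h, 2690 FPKM at 48 h, 1358 FPKM at 60 h and 1643 FPKM at 72 h, a change from 12 to 24 h of 6.64 (6.402 after rescaling). The low libraries were those at 2 h and 12 h, and the 24 h library was the highest of the 7. The next was CPIJ000835, with 2.73 FPKM at 2 h, 52.0 FPKM at 12 h, 2104 FPKM at 24 h, 3726 FPKM at 36 h, 2106 FPKM at 48 h, 2398 FPKM at 60 h and 1087 FPKM at 72 h, a change of 5.31 (5.07 after rescaling). Each of its 5 libraries from 24 h on was over 20 times the 12 h value. In both genes the values at 2 h, 12 h and 24 h were in ascending order, and the libraries from 24 h on did not overlap with the earlier 2.

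The largest decrease was that of CPIJ013785. It was listed at 474 FPKM at 2 h, 298 FPKM at 12 h, 1.02 FPKM at 24 h, 0.317 FPKM at 36 h, 0.308 FPKM at 48 h, 0.206 FPKM at 60 h and 0.264 FPKM at 72 h, a change of -7.21 (-7.39 after rescaling). At 24 h the gene was near the value of the added 1 FPKM, so the size of this change depends on that choice, and with 0.1 FPKM added it was -8.06. CPIJ012572, at 12982 FPKM at 2 h, had 5190 FPKM at 12 h, 129 FPKM at 24 h, 42.1 FPKM at 36 h, 14.9 FPKM at 48 h, 23.9 FPKM at 60 h and 21.4 FPKM at 72 h, a change of -5.32 (-5.56 after rescaling). In both genes the 2 h and 12 h libraries were high and the 5 later ones low.

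The next 8 genes in each direction, ranked in the same way among the 4979 genes that reached 10 FPKM at 12 h or 24 h, mostly followed these courses. The 10 largest increases were between 3.22 and 6.64, and 9 of these 10 genes had a higher value at 12 h than at 2 h. At 72 h, 9 of the 10 were still at least 2-fold above their 12 h value. The exception, the eighth in rank, stood at 7.32, 5.08, 73.3, 2.44, 5.89, 7.62 and 2.99 FPKM from 2 to 72 h, and so was high in the 24 h library only. The ninth was at 0.0342 FPKM in the 12 h library and 10.4 FPKM in the 24 h library, so that its change of 3.46 is strongly damped by the added 1 FPKM.

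The 10 largest decreases were between -4.06 and -7.21. In 9 of these 10 genes the 2 h value was above the 12 h value, and all 10 were at least 2-fold below their 12 h value at 36 h and at 72 h. The eighth in rank alone had its highest value at 12 h: its first 3 values were 10.5, 34.0 and 0.649 FPKM, and it stood between 2.07 and 2.63 FPKM from 36 h on. The seventh, whose first 3 values were 11145, 3628 and 163 FPKM, and CPIJ012572 were the 2 of these genes with the highest values at 2 h. The 10 largest increases were the same genes after rescaling, and 9 of the 10 largest decreases were.

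**Figure D4:**
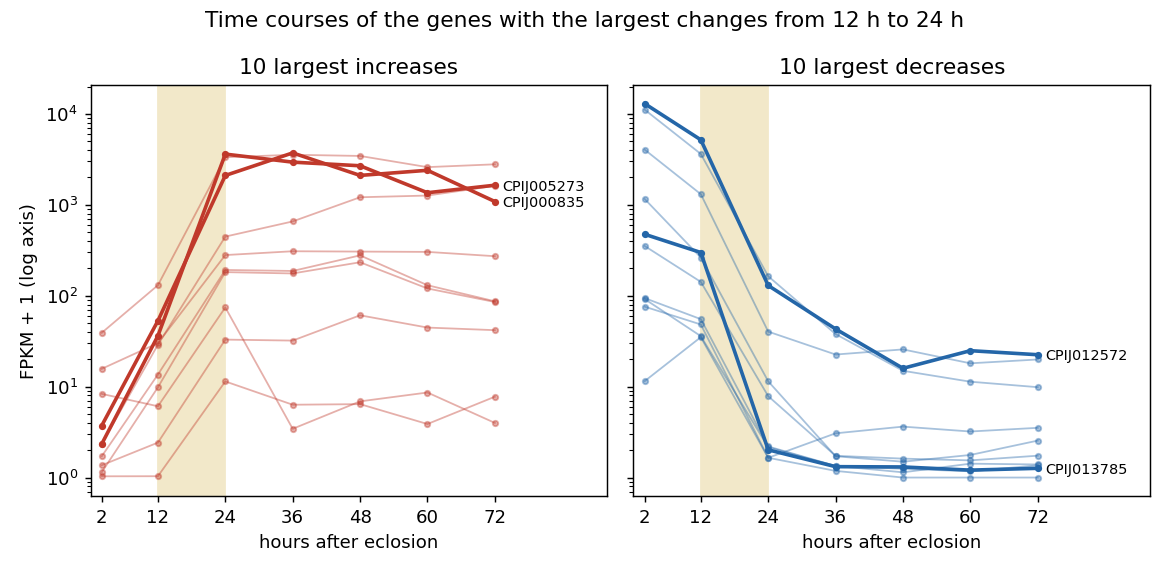
FPKM + 1 (log axis) over hours after eclosion (x) for the 10 genes with the largest increase (left, red) and the 10 with the largest decrease (right, blue) from 12 h to 24 h, the shaded interval; each point is 1 library, and the 2 genes of each panel given by identifier are in bold. At 72 h, 9 of the 10 on the left remain at least 2-fold above and all 10 on the right at least 2-fold below their 12 h value.

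The genes higher at 24 h mostly kept their level. Their median was 4.08 FPKM at 2 h, 6.16 FPKM at 12 h and 17.4 FPKM at 24 h, then 17.7, 22.5, 19.8 and 24.6 FPKM at 36, 48, 60 and 72 h. Each gene was read against the midpoint of its own 12 h and 24 h values on the log2 scale. At 36, 48, 60 and 72 h, 92.4%, 92.7%, 83.7% and 89.9% of the 722 genes were on the 24 h side of it, but 5.12% at 2 h. By the mean of the 4 later libraries, 668 genes were kept on the 24 h side and 54 had returned. After rescaling, 366 of 412 were kept. The highest of the 7 libraries was the one at 72 h for 352 of the 722 genes and the one at 24 h for 177. After rescaling it was the one at 72 h for 147 of 412 and the one at 24 h for 103. Among the 6554 genes within 2-fold, it was the one at 72 h for 2631 and the one at 24 h for 722. For the 6701 genes within 2-fold after rescaling these numbers were 1821 and 572. A highest value at 72 h was thus common outside the higher genes too.

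The higher genes differed in what came before 12 h. For 519 of the 722, the 2 h value was on the 12 h side of the midpoint and not 2-fold below the 12 h value. Their median was 4.19 FPKM at 2 h, with 5.10 FPKM at 12 h, 14.4 FPKM at 24 h and, in the last library, 21.8 FPKM. Another 166 had already passed 2-fold between 2 h and 12 h, with a median of 2.28 FPKM at 2 h, 13.4 FPKM at 12 h and 43.2 FPKM at 24 h. From 36 h on the median of these 166 was between 36.6 and 42.9 FPKM, so it was no higher than at 24 h. The remaining 37 were on the 24 h side at 2 h as well, and so had a low value at 12 h between higher ones. After rescaling, 293 of the 412 higher genes were of the former kind, 90 of the next and 29 of the last. In 5 of the 37 the 2 h value was at least 2-fold above the 24 h value, with a median of 124 FPKM at 2 h, 8.21 FPKM at 12 h and 23.6 FPKM at 24 h.

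The genes lower at 24 h were of several kinds. Their median was 27.1 FPKM at 2 h, 26.9 FPKM at 12 h and 7.90 FPKM at 24 h, then between 4.90 and 6.62 FPKM from 36 h on. For 159 of the 302, the 2 h value was on the 12 h side of the midpoint and not 2-fold above the 12 h value. The median of these genes was 27.4 FPKM at 2 h, 27.9 FPKM at 12 h and 7.47 FPKM at 24 h. Another 61 were already lower by 2-fold or more at 12 h than at 2 h, with a median of 135 FPKM at 2 h, 41.0 FPKM at 12 h, 9.54 FPKM at 24 h and 4.91 FPKM at 36 h. All 61 stayed on the 24 h side by the mean of the later libraries. After rescaling the former kind held 270 and the latter 98 of the 465 lower genes, and 95 of those 98 stayed on the 24 h side.

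The other 82 lower genes were on the 24 h side at 2 h, and so were high at 12 h between lower values. For 67 of them the median was 6.64 FPKM at 2 h, 17.8 FPKM at 12 h and 5.48 FPKM at 24 h. In the other 15 the 2 h value was at least 2-fold below the 24 h value, and the median was 3.25 FPKM at 2 h, 56.7 FPKM at 12 h and 13.8 FPKM at 24 h. After rescaling these kinds held 87 and 10 genes. A high value at 12 h between lower ones was thus found in 27.2% of the 302 genes (20.9% of 465 after rescaling), and a low value between higher ones in 5.12% of the 722 (7.04% of 412). A single library is all that carries the 12 h value in these genes.

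Fewer of the lower genes than of the larger decreases among them stayed on the 24 h side of the midpoint. At 36, 48, 60 and 72 h, 80.1%, 85.4%, 80.5% and 96.4% of the 302 genes were on the 24 h side of the midpoint. Among the 84 genes at least 4-fold lower these values were 97.6%, 98.8%, 97.6% and 98.8%. A larger decrease sets the midpoint further from the 24 h value, so more recovery is needed to cross it. How far the higher part of the 84 genes on the 24 h side, and their fewer returns, follow from this was not tested. Of the 69 genes at least 4-fold higher, 95.7%, 91.3%, 88.4% and 87.0% were on the 24 h side at these times. For all 722 higher genes the values were 92.4%, 92.7%, 83.7% and 89.9%, so neither set was ahead throughout. The median of those 84 genes was 44.7 FPKM at 12 h, 5.47 FPKM at 24 h and 1.38 FPKM at 72 h. Of the 302 genes, 43 had returned by the mean of the later libraries, 1 of them among the 84 (85 of 465 and 1 of 103 after rescaling). That gene stood at 59.7 FPKM at 12 h, 11.3 FPKM at 24 h, 123 FPKM at 48 h and 268 FPKM at 60 h.

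Among the genes at least 2-fold lower at 24 h, the 43 that had returned by the later libraries did not settle at 1 level. Their median was 8.39 FPKM at 2 h, 18.6 FPKM at 12 h, 6.22 FPKM at 24 h, 16.5 FPKM at 36 h, 13.6 FPKM at 48 h, 15.0 FPKM at 60 h and 9.19 FPKM at 72 h. In 27 of these 43 genes (62.8%) the libraries at 36 h and 60 h both stood above those at 48 h and 72 h, an order seen in 26.5% of the 302 lower genes and in 8.17% of all 7578. After rescaling it was 59 of 85 genes (69.4%), against 39.1% of the 465 lower genes and 16% of the 7578. The 302 and the 465 lower genes include those that had returned. The median ratio used for rescaling was 1.02 at 36 h and at 60 h, 1.10 at 48 h and 1.15 at 72 h. By this measure the deposited values stood higher at 48 h and 72 h, which makes the order rarer among them. The order of the later 4 libraries did not enter the choice of the returned genes, but their mean did. The choice also required a higher value at 12 h than at 24 h, which favours genes that alternate between libraries. This order was not among the planned results. The hour of day at which the pools were taken is not given in the labels, and the part of the light-dark cycle in this order was not tested.

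**Figure D5:**
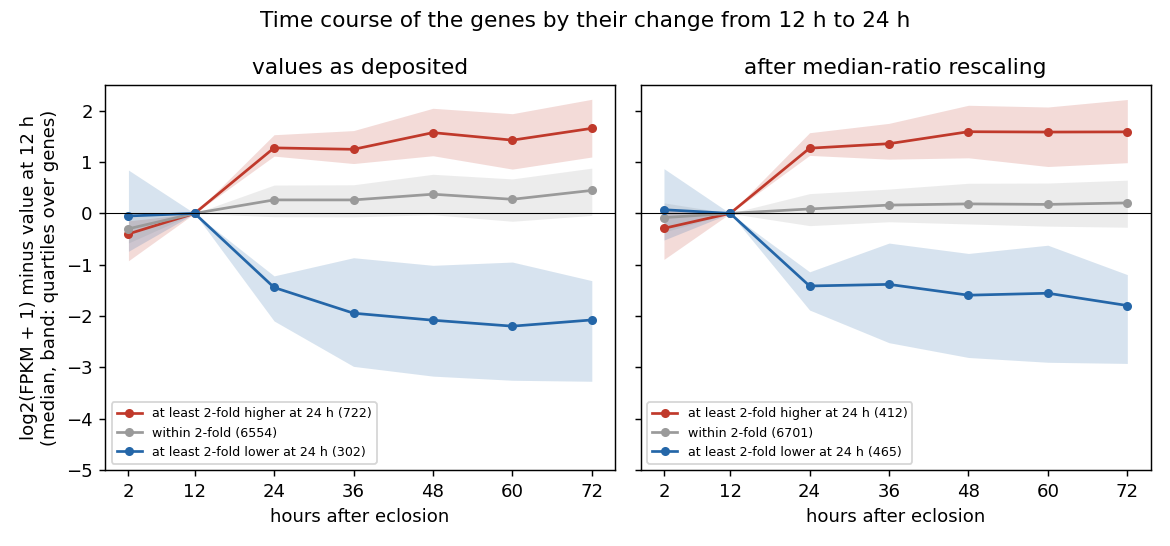
Difference from the 12 h value on the log2(FPKM + 1) scale (y) over hours after eclosion (x), as the median over genes (line) and the quartiles over genes (band), for genes at least 2-fold higher (red), within 2-fold (grey) and at least 2-fold lower (blue) at 24 h, with the deposited values (left) and after rescaling (right). The red median stays between 1.25 and 1.66 from 24 h on (left) and the blue median between -1.44 and -2.20; their values at 12 h and 24 h are set by the choice of genes.

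The 5 libraries that took no part in the comparison were set against each other for the same genes, as the mean of log2(FPKM + 1) at 36, 48, 60 and 72 h minus the 2 h value. Of the 722 genes higher at 24 h than at 12 h, 636 (88.1%) were at least 2-fold higher in the later libraries than at 2 h, where 37.7% of all 7578 genes were. After rescaling it was 84.7% of 412 genes against 22.2%. Of the 302 lower genes, 195 (64.6%) were at least 2-fold lower in the later libraries than at 2 h, where 8.49% of all genes were, and after rescaling 60.2% of 465 genes against 13% of all genes. The median of this difference was 1.98 in the higher, -2.03 in the lower and 0.70 in the genes within 2-fold (1.83, -1.73 and 0.33 after rescaling). Across the 7578 genes, which are not independent replicates, it correlated with the change from 12 to 24 h at r = 0.715 (0.715 after rescaling), given as a description.

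The minimum of 5 FPKM placed genes of like values on both sides. The 5 genes just above it had their higher value between 5.00 and 5.01 FPKM and changes between -0.18 and 1.38. The 5 just below it had their higher value between 4.99 and 5.00 FPKM and changes between 0.36 and 0.80. Among the 12727 genes below the minimum, 147 were past 2-fold higher and 79 past 2-fold lower on the same scale, and 3107 of the genes in the table were listed at 0 at both times.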

How the data were processed

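The authors deposited 1 table with a value per gene and library, read here as FPKM. The series' design text names TopHat, Cufflinks and Cuffdiff as the authors' pipeline, and the submitters' processing notes add CASAVA 1.8 and Trimmomatic. The file header gives only the gene and the hour, so the unit was inferred from these tools and from the values. Per the labels' protocols, both ends of each fragment were read for 51 nucleotides. The genome build, the annotation, strand, any scaling between libraries and the treatment of reads shared by similar genes are not stated in any source at hand.

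Changes were computed on log2(FPKM + 1) with Python 3.11.15, numpy 2.4.6 and pandas 2.3.3, and the code was tested on simulated data. Rescaling divided each library by its median ratio to the geometric mean of the 2761 genes that reached 10 FPKM throughout. Absolute fragment numbers are unknown, so no count test was run and no interval computed. Genes given individually are the 10 largest changes per direction where 10 FPKM was reached at 12 h or 24 h, the first 2 by identifier. Planned gene lists by words in names could not be built. The members, classes and rules were chosen with earlier results of these data known. Alternatives were other added values, scalings and minimum values.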

Additional observations from a re-analysis of the deposited data

How the results depend on the processing

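Of 141 alternative values of counts, medians and shares, 119 stayed within 1.5 times the reported value. The 119 include all values with genes listed at 0 left out, which could not change. Shares of the genes within 2-fold, and parts on the 24 h side from 36 h on, were too high to rise by 1.5 times. Each value was judged alone, so the number 119 does not show that the direction holding more genes at 2-fold turned on rescaling by the median ratio. Rescaling over all 7 libraries gave 412 higher and 465 lower genes at 2-fold and a median change of 0.082. Rescaling over the 3676 genes that reached 10 FPKM at both 12 h and 24 h gave 406, 466 and 0.080. Applying the minimum after rescaling, an alternative chosen after seeing the data, gave 406 and 475 of 7506 genes and 0.060. The higher genes held 2.52% of the sum of FPKM at 12 h and 8.70% at 24 h with the rescaling over all 7 libraries. With the rescaling over the 3676 genes they held 2.29% and 8.20%. Both pairs are below those of the deposited values because fewer genes are counted as higher. With libraries set to the same sum, 557 genes were higher and 367 lower at 2-fold, the same order as in the deposited values. The median change was then 0.19. With 0.1 FPKM added, 115 genes were at least 4-fold and 18 at least 10-fold higher, because low values weigh more, and 15.4% of the genes between 5 and 10 FPKM were past 2-fold against 9.50%. With a minimum of 20 FPKM, 2856 genes were compared and 322 were higher, 180 lower, 502 either at 2-fold and 44 higher at 4-fold. With no minimum the median change was 0.042 and the median absolute change 0.20, over 20305 genes. Of 16 alternative changes of single genes, 1 moved by over 1.5-fold, that of CPIJ013785 with 0.1 FPKM added (-8.06), and 0 changed sign. Leaving out genes listed at 0 changed nothing, as no member was listed at 0 at 12 h or 24 h. No paired analysis was possible because no time was sampled again, and for the same reason neither library could be left out. Other settings for gene lists were not run, for want of gene names.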

Other observations

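A few genes were high in the 24 h library alone. In 9 genes it stood at least 2-fold above every other library (7 after rescaling), and in none of the 7578 genes did it stand at least 2-fold below every other one. The 12 h library stood at least 2-fold above every other in 33 genes (34 after rescaling) and below every other in 9 (7 after rescaling).

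Genes with large decreases often had successive identifiers. Of the 57 genes at least 4-fold lower that had a compared gene at the next or the preceding identifier number, 19 (33.3%) had one that was also at least 4-fold lower, while 1.27% of all 5736 compared genes with such a neighbour had one. Of 54 genes at least 4-fold higher with such a neighbour, 6 (11.1%) had one that was also at least 4-fold higher, again against 1.27%. One run of 3 successive genes stood at 2321, 5697 and 141 FPKM at 12 h and at 192, 532 and 6.86 FPKM at 24 h. By 48 h these 3 genes were at 1.08, 1.69 and 0.615 FPKM. Successive identifiers need not be neighbours in the genome, and the sharing of reads between similar genes was not tested.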
